A study of Mus musculus with 4 samples.

Results

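The chemokine genes, which encode small secreted proteins that attract leukocytes and the receptors that sense them, were examined for trimethylation of lysine 27 of histone H3 (H3K27me3), the mark that Polycomb repressive complex 2 lays down over silent genes. The members were taken by symbol, as every listed gene off the X chromosome whose name starts with Ccl, Cxcl, Xcl, Cx3cl, Ccr, Cxcr, Xcr or Cx3cr and a digit. Of 22691 listed genes, 56 met this rule, 38 encoding ligands and 18 encoding receptors. Cxcr3, the receptor gene on the X, was left out by the rule. Both genotypes had a value for 50 members, 32 ligands and 18 receptors. Of the other 6, all ligand genes on chromosome 4, 5 had no value in either genotype and 1, Ccl27a, had one in the mutant alone.

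Chromatin immunoprecipitation and sequencing (ChIP-seq) was done on fibroblasts from female C57BL6/J embryos at stage E13.5, either wild type (Smchd1 +/+, called WT) or homozygous for the MD1 allele (Smchd1 MD1/MD1, called MD1), which the series describes as deficient for SmcHD1, a chromatin protein needed to keep the inactive X silent. The mouse monoclonal antibody CMA323 was used, and each genotype had 1 ChIP library and 1 input library made without antibody. There were 4 libraries in all and no replicates, so no difference between the genotypes could be tested and no p-value is given. The labels do not say how many embryos or cultures stood behind a library.

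Each value is a log2 enrichment for a listed gene. Neither the denominator nor the counted part of the gene is stated in the labels. Levels of different genes are set side by side on the assumption that it is a ratio to the input library over the same interval, in which gene length would cancel. The depth of the libraries is unknown. The difference D is the MD1 value minus the WT value on the log2 scale, and a gene was counted as lower or higher in MD1 when D reached the 2-fold limit of -1 or 1. Values at all 19836 autosomal genes with both values served as the background. Since the MD1 values were more widely spread (slope of MD1 on WT 1.25 across autosomal genes), D itself depended on the level of a gene. A level-adjusted D is therefore given where it matters, for which the median D of 500 autosomal genes of like mean level, drawn from the same length quartile, was subtracted. The SD of D among those 500 genes is quoted as a yardstick of scatter and not as a replicate error. A value averages both alleles and all cells of a culture, so fewer cells with the mark and less of the mark per cell cannot be told apart.

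Chemokines are grouped by the spacing of their first cysteines into CC, CXC, XC and CX3C ligands, and each class signals through its own class of receptors that couple to inhibitory G proteins. Inflammatory members are switched on by cytokines and by nuclear factor kappaB, whereas homeostatic members are made steadily and place cells in lymphoid organs and the bone marrow. Most receptors belong to leukocytes, while fibroblasts are a known source of several ligands, among them Ccl2, Ccl7, Cxcl1 and Cxcl12. Many of the genes arose by local duplication and still lie side by side. Polycomb marking in mammals is known to favour promoters rich in CpG dinucleotides, the sites of DNA methylation.

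The promoters of 8 members are shown because they span the range of CpG content and of H3K27me3 described below. They come from RefSeq on the build GRCm38.p6, from 250 bases before to 50 bases after the most upstream listed start, 5′ to 3′. In the first 6 the capitals mark CpG dinucleotides. Cxcr4 and Cxcl14 combine many CpGs with a high WT level, Cxcl12 and Ccl25 combine many CpGs with a lower level, Cxcl13 has few CpGs and a high level, and Ccl12 has few CpGs, a lower level and the largest positive D. In the last 2, those of the neighbouring paralogs Cxcl1 and Cxcl2, the capitals mark matches to the kappaB consensus, to which nuclear factor kappaB binds, on either strand.
Cxcr4 promoter, chr1:128592250-128592549, minus strand: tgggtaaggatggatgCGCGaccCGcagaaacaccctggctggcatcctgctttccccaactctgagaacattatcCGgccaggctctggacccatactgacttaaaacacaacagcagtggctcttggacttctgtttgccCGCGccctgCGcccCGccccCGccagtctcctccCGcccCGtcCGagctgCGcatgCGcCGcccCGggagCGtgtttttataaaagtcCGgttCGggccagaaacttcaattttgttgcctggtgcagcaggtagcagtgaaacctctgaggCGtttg
Cxcl14 promoter, chr13:56296502-56296801, minus strand: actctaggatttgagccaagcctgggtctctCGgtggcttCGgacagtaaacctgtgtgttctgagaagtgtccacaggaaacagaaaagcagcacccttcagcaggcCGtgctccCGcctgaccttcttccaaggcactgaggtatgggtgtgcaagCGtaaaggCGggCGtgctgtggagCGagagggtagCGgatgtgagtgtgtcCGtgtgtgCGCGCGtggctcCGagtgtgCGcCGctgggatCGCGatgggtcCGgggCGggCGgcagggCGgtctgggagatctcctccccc
Cxcl12 promoter, chr6:117168285-117168584, plus strand: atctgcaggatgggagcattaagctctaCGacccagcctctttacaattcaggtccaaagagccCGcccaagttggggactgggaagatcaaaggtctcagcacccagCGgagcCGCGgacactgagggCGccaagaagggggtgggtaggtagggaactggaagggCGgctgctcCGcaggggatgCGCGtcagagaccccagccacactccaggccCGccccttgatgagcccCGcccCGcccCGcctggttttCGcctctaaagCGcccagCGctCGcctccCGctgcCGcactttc
Ccl25 promoter, chr8:4324960-4325259, plus strand: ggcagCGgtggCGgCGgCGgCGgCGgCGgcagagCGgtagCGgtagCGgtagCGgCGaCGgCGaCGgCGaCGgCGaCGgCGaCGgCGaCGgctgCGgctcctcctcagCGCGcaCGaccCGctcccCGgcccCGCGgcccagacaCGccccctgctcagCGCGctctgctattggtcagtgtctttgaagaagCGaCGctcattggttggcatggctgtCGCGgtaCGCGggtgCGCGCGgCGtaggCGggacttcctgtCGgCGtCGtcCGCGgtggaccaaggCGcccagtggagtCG
Cxcl13 promoter, chr5:95956689-95956988, plus strand: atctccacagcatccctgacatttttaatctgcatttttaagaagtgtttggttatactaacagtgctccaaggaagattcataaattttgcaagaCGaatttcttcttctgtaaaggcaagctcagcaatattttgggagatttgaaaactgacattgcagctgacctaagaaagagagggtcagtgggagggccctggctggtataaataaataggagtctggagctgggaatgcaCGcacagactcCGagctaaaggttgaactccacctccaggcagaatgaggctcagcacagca
Ccl12 promoter, chr11:82101595-82101894, plus strand: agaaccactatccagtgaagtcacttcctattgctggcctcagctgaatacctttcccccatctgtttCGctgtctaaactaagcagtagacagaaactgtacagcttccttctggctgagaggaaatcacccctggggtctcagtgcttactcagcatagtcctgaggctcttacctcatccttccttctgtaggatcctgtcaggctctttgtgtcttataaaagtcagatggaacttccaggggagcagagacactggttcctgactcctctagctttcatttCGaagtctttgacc
Cxcl1 promoter, chr5:90890995-90891294, plus strand: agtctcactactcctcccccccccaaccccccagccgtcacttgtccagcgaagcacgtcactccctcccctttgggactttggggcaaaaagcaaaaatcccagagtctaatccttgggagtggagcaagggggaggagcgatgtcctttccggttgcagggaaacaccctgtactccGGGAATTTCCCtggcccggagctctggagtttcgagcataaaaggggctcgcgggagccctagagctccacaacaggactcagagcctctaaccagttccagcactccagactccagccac
Cxcl2 promoter, chr5:90903649-90903948, plus strand: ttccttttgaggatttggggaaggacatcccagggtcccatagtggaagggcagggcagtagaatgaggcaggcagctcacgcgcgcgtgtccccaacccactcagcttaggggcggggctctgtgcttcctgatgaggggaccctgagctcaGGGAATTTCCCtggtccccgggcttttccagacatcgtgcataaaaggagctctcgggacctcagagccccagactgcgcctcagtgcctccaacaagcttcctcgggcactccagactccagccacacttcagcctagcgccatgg

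Most chemokine genes carried more H3K27me3 than the median autosomal gene in both genotypes. The median level of the 50 members was 0.19 in WT, with quartiles of -0.36 and 0.98, and 0.46 in MD1, with quartiles of -0.47 and 1.18, against autosomal medians of -0.78 and -0.90. Ranked among autosomal genes, they lay at percentile 68.6 in WT and 74.4 in MD1. In WT 42 of 50 members lay above the autosomal median and 10 lay above the 90th percentile, while 3 lay below the 25th. In MD1 the first 2 counts were 42 and 8. For comparison, markers of fibroblasts stood low, with a median of -2.87 in WT and 8 of 12 genes below the 25th percentile. The WT median was 0.07 for markers of endothelium, 0.45 for those of leukocytes and 1.30 for those of epithelia. That of the chemokine genes lay between the endothelial and leukocyte lists. Of 10 leukocyte markers 2, Cd14 and Cd68, lay below the 25th percentile, at -2.20 and -2.42.

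Few members differed by 2-fold between the genotypes. Ccl12 and Ccl7, ligands that attract monocytes, were higher in MD1, and Cxcl1, a ligand that attracts neutrophils, and Cxcr6, the receptor for Cxcl16, were lower. The other 46 members lay within 2-fold. The 2 lower members are to be read against a share of 20.4% of all autosomal genes for this direction, and the 2 higher ones against 1.61%. Of the 50 members 36 fell in the shortest length quartile, in which 22.2% of autosomal genes were lower and 5.36% higher. Leaving out genes below the 25th percentile of mean level, which removed 1 of the 50 members, the background was 4.71% lower and 1.87% higher. Relative to level-matched genes 1 member was lower and 3 were higher, against 3.41% and 3.16% of autosomal genes. In the shortest length quartile 498 of 4959 genes were lower on that scale and 474 higher. Centred on the autosomal median D of -0.27, 1 member was lower and 6 were higher, namely Ccl12, Ccl7, Ccl24, Ccl2, Cxcl2 and Ccr1l1, against 13.3% and 3.22%. At a limit of 1.5-fold, 6 members were lower and 11 higher, against 34.4% and 5.05%, and at 3-fold, 1 was lower and 1 higher, against 7.61% and 0.423%. The median D of the members was 0.11 (quartiles -0.21 and 0.54), and 28 of 50 had a positive D, against 31.0% of autosomal genes, but relative to level-matched genes 29 were positive against 49.6%.

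**Figure D1:**
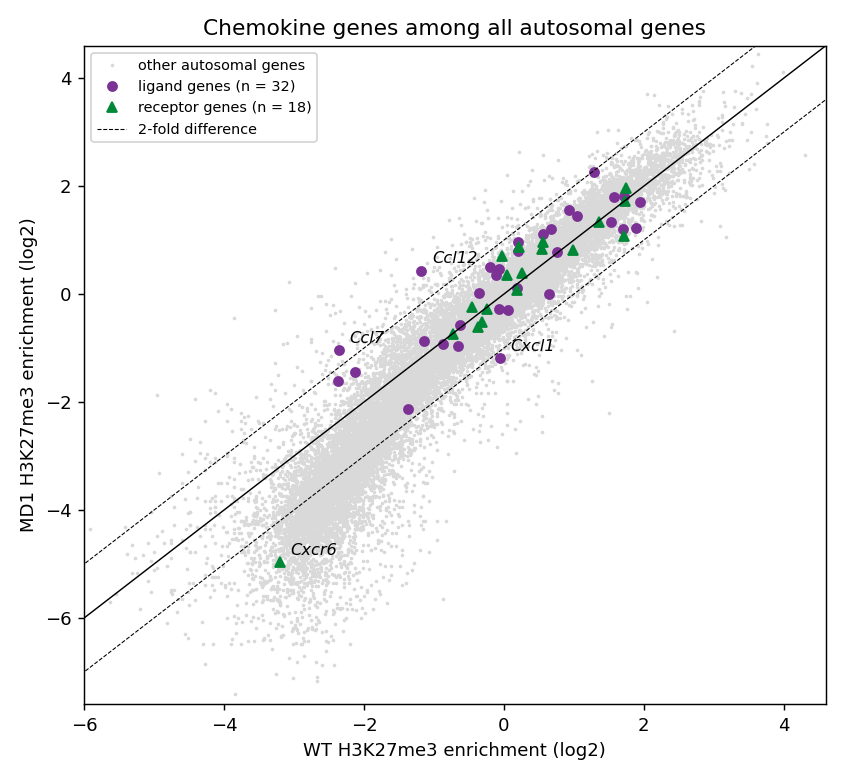
MD1 against WT log2 H3K27me3 enrichment for the 32 ligand genes (circles) and 18 receptor genes (triangles) over all other autosomal genes (grey), with the line of equal values and dashed lines at a 2-fold difference. The members lie mostly in the upper right, and Ccl12, Ccl7, Cxcl1 and Cxcr6 are the 4 beyond the dashed lines.

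Ligand and receptor genes stood at like levels. The median WT level was 0.13 for ligands (quartiles -0.64 and 0.96) and 0.20 for receptors (quartiles -0.30 and 0.88), and in MD1 the medians were 0.46 and 0.55. The median D was 0.25 for ligands (quartiles -0.22 and 0.60) and -0.02 for receptors (quartiles -0.15 and 0.27). A positive D was found at 20 of 32 ligands (62.5%) and 8 of 18 receptors (44.4%), against 31.0% of autosomal genes. Relative to level-matched genes 59.4% of ligands and 55.6% of receptors were positive, against 49.6%. By the quartiles of D the receptors lay in a narrower band. Receptor genes were also longer, with a median of 6763 bp against 3450 bp, and 26 ligands but 10 receptors fell in the shortest length quartile, where values scatter most. The part of gene length in the wider spread of the ligands was not tested. The gap between the classes rested on chromosome 11: for the 21 ligands outside its Ccl clusters the median D was -0.08.

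**Figure D2:**
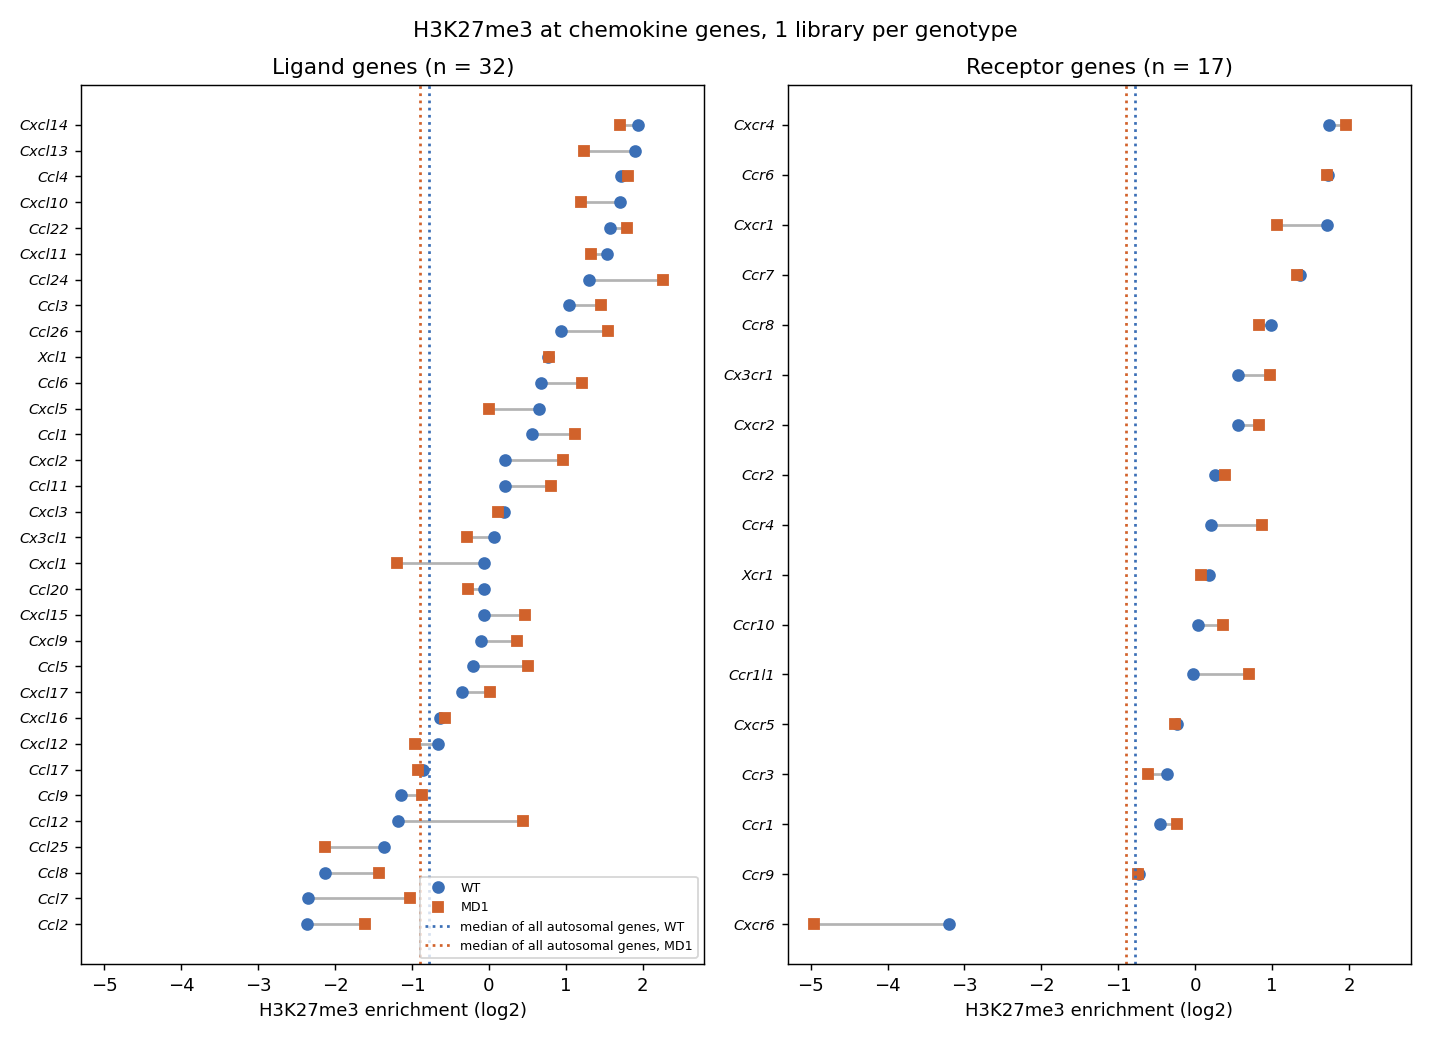
Log2 H3K27me3 enrichment of each ligand gene (left) and of 17 receptor genes (right) in WT (circles) and MD1 (squares), 1 library per genotype, sorted by the WT value, with dotted lines at the autosomal medians. Ligands range from -2.37 to 1.94 in WT, and the plotted receptors other than Cxcr6 lie between -0.73 and 1.74.

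Among the ligands, the highest WT levels were found at genes of the CXC and CC classes with diverse roles. Cxcl14 (chromosome 13, 56390006 to 56397912 on mm9), a ligand made in skin and other epithelia, stood at 1.94 in WT and 1.70 in MD1. Cxcl13 (chromosome 5, 96385958 to 96390087), which draws B cells into follicles, stood at 1.90 and 1.23. Both were above the 95th percentile in WT, and in both the MD1 value was the lower one. Ccl4, an inflammatory ligand of macrophages, stood at 1.72 and 1.81. The interferon-induced ligand gene Cxcl10 stood at 1.71 and 1.20. Ccl22, which attracts T cells through Ccr4, stood at 1.58 and 1.80. Among these 5 the MD1 value was the lower one at the CXC ligands and the higher one at the CC ligands.

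The lowest WT levels among ligands were those of the monocyte attractants and of Ccl25. Ccl2 stood at -2.37 in WT and -1.62 in MD1, Ccl7 at -2.36 and -1.03, and Ccl8 at -2.13 and -1.43. Ccl12 followed at -1.18 in WT but reached 0.44 in MD1. These 4 ligands lie close together on chromosome 11, with Ccl11 (0.21 in WT) between Ccl7 and Ccl12. All 4 had a higher value in MD1. Ccl25, a ligand of thymus and small intestine, stood at -1.37 and -2.14, so that it was low in both. Ccl9, a myeloid ligand of rodents, stood at -1.14 and -0.87.

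The CC ligands as a class had the more positive D. Of 17 CC ligands 14 had a positive D, with a median of 0.55 (quartiles 0.22 and 0.71), and 11 of these 14 lie in the chromosome 11 clusters. The CXC ligands with the ELR motif, which attract neutrophils, split, with 2 of 5 positive and a median of -0.08. The CXC ligands without it had a median of -0.22, with 3 of 8 positive. Over all autosomal genes 31.0% had a positive D and the median was -0.27. Centred on that median, the CXC classes stood at 0.20 with the motif and 0.05 without it. After level adjustment their medians were -0.03 and -0.26, with 2 of 5 and 3 of 8 positive, against 49.6% of autosomal genes. The XC and CX3C ligands, Xcl1 and Cx3cl1, went from 0.77 to 0.79 and from 0.07 to -0.29. Of the homeostatic ligands 4 had values, Ccl25, Cxcl12, Cxcl13 and Cxcl14, and all 4 had a negative D, between -0.77 and -0.24, as did most autosomal genes. Centred on the autosomal median they ran from -0.50 to 0.03, with Cxcl14 above 0. After level adjustment all 4 were negative, from -0.79 to -0.21. The 9 ligands known from fibroblasts held both directions, with 4 positive and a median of -0.24, or 0.03 when centred and -0.21 when level-adjusted. Among them 1 gene lay beyond the limit each way (Ccl7 and Cxcl1), against 1.61% of autosomal genes higher and 20.4% lower. In the shortest length quartile, which held 6 of the 9, the shares were 5.36% and 22.2%.

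The clearest regional pattern was at the Ccl genes of chromosome 11. Members whose starts lay within 500 kb of the next were joined, which gave 7 clusters of at least 3 members, 3 pairs and 14 single genes. The cluster from Ccl2 to Ccl1 (chromosome 11, 81849079 to 81993314) holds the monocyte and eosinophil attractants Ccl2, Ccl7, Ccl11, Ccl12 and Ccl8 and the T cell ligand gene Ccl1. All 6 were higher in MD1, with a median of -1.65 in WT and -0.30 in MD1 and D between 0.55 and 1.62. The cluster from Ccl5 to Ccl4 (chromosome 11, 83339281 to 83478185) holds the inflammatory ligands Ccl5, Ccl3 and Ccl4 and the rodent genes Ccl9 and Ccl6. All 5 were again higher in MD1, with D between 0.09 and 0.71 and a median of 0.41.

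The single genes of the first cluster differed in size of D. Ccl12 (81915347 to 81916901) went from -1.18 to 0.44, a D of 1.62 or 3.07-fold. Ccl7 (81859214 to 81861025) went from -2.36 to -1.03, a D of 1.33. Their level-adjusted D was 1.73 and 1.59, against a scatter (SD) of 0.78 and 0.96 among level-matched genes. Both genes are short, at 1555 and 1812 bp. In lowest terms the WT and MD1 ratios of Ccl12 had denominators of 7 and 13. The MD1 ratio of Ccl7 was 1 to 2. The reads behind these ratios may be few, but ratios in lowest terms do not show this. Ccl2 (D 0.75), Ccl8 (0.69), Ccl11 (0.60) and Ccl1 (0.55) lay within 2-fold. Ccl2 passed the limit relative to level-matched genes, at 1.15.

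The 11 genes of both clusters, put together after their values were seen, had a median D of 0.60. Relative to level-matched genes 10 of the 11 were positive, the exception being Ccl4 at -0.05. On chromosome 11 as a whole 32.9% of 1598 genes had a positive D. In the shortest length quartile, over the range of mean levels of these 11 genes, 48.6% of 2810 autosomal genes did. The 32 genes between the clusters had a median D of -0.13, and 12 of them were positive. Within 200 kb of the first cluster the other genes were the long channel gene Asic2, at 0.81 in WT and 0.76 in MD1, and 5530401A14Rik, at 1.01 and 1.07. Around the second, 6 of 13 other genes had a positive D, with a median of -0.05, and the highest, Wfdc17 (0.79), lies beside the Ccl genes. Neighbouring genes share chromatin, so the 11 are not independent observations.

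**Figure D3:**
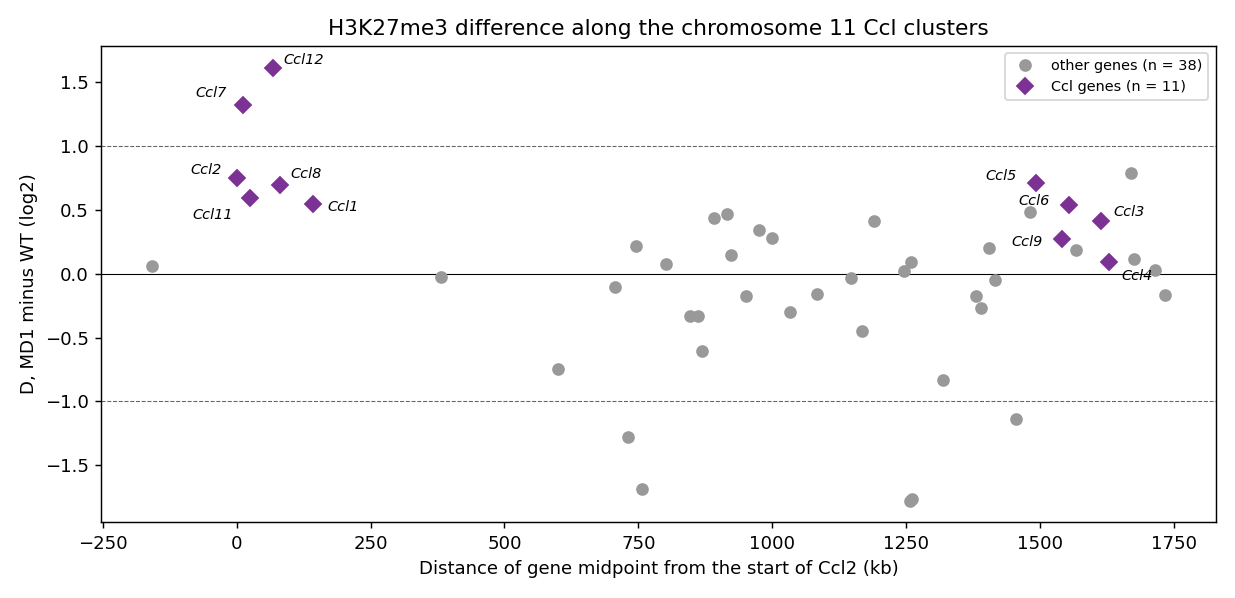
D (MD1 minus WT, log2) of genes with both values against the distance of the gene midpoint from the start of Ccl2, with the 11 Ccl genes as diamonds, 38 other genes as circles and dashed lines at a 2-fold difference. All 11 Ccl genes lie above 0, as do 17 of the 38 other genes.

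The CXC ligand cluster from Cxcl5 to Cxcl2 on chromosome 5 (91188324 to 91334964) moved in both directions. Cxcl1 (91320271 to 91322141) went from -0.06 to -1.19, a D of -1.13, and Cxcl5 from 0.65 to 0.00. Cxcl2 (91332925 to 91334964), the next listed gene after Cxcl1, went from 0.21 to 0.97, and Cxcl15, a lung ligand of the mouse, from -0.07 to 0.47. Cxcl3 was nearly even, at 0.20 and 0.12. The neutrophil attractants Cxcl1 and Cxcl2 stood closer in WT than in MD1. The MD1 ratio of Cxcl2 was 2 to 1 in lowest terms, as was that of the much longer gene Cx3cr1. Few reads may stand behind the Cxcl2 value, but a ratio in lowest terms does not show this. Relative to level-matched genes Cxcl1 differed by -1.06 and Cxcl2 by 0.75, against a scatter of 0.80 and 0.67. The promoters printed above align with 55.6% identity, and each holds the run GGGAATTTCCC, made of 2 overlapping matches to the kappaB consensus. Ppbp, a platelet chemokine gene of the same cluster under another name, went from 0.59 to 0.72. With Ppbp counted, 4 of the 6 genes with values in and around the cluster that are no members had a positive D.

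The cluster of interferon-induced ligands on chromosome 5 (92750357 to 92792322) also split. Cxcl10 differed by -0.51 and Cxcl11 by -0.20, whereas Cxcl9 went from -0.11 to 0.36. Cxcl10 and Cxcl11 overlap the gene Art3, which went from 0.94 to 1.02, and ChIP reads carry no strand, so these genes can share reads. Cxcl10 and Cxcl11, at 1.71 and 1.54 in WT, stood above all 8 other genes around the cluster, of which Art3 was the highest. The pair Ccl26 and Ccl24 on chromosome 5 was higher in MD1. Ccl24 (136045807 to 136048913), a ligand for eosinophils, went from 1.29 to 2.27, a D of 0.97 just inside the limit and the highest MD1 level of any member. Ccl26 went from 0.93 to 1.55. Around the pair 4 of 8 other genes had a positive D.

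On chromosome 8 the ligand genes Ccl22, Cx3cl1 and Ccl17 differed by 0.22, -0.35 and -0.05. Cx3cl1 encodes a membrane-anchored ligand, and Ccl17 shares the receptor Ccr4 with Ccl22. Ccl22 stood much higher than Ccl17, at 1.58 against -0.86 in WT, although the genes are near neighbours. The chromosome 4 cluster of Ccl27a, Ccl27b, Ccl21a, Ccl21b, Ccl21c and Ccl19, which holds the lymphoid ligands of Ccr7, had no pair of values. Ccl27a had an MD1 value of -3.84, a ratio of 1 to 14 in lowest terms. It starts at 41716343 and the neighbouring gene Il11ra1 ends at 41716346, so their intervals barely overlap. Il11ra1 stood at -3.31 in WT and -3.32 in MD1. Of 18 other genes in this neighbourhood 11 had both values. The Ccl21 and Ccl27 genes exist as near-identical copies, and the handling of reads that map to several places is not given in the sources used here.

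**Figure D4:**
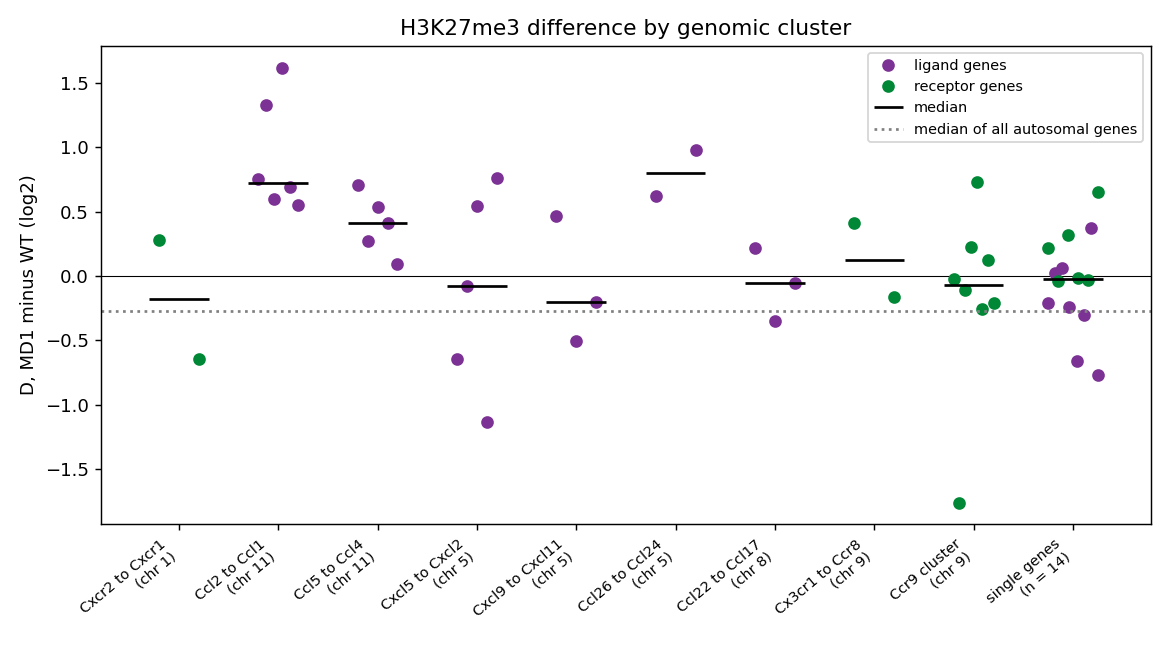
D (MD1 minus WT, log2) of each member by genomic cluster or pair with values and for the 14 single genes, with horizontal bars at medians, a solid line at 0 and a dotted line at the autosomal median of -0.27. Every gene of both chromosome 11 clusters and of the pair Ccl26 and Ccl24 lies above 0, and the other groups hold both signs.

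Receptor genes were mostly even between the genotypes. Cxcr4 (chromosome 1, 130484776 to 130488876), the receptor that holds stem cells in the bone marrow, was the highest, at 1.74 in WT and 1.96 in MD1. Ccr6, a receptor of T and B cells, followed at 1.73 and 1.72, and Cxcr1, a neutrophil receptor, at 1.71 and 1.07. Ccr7, which guides lymphocytes and dendritic cells into lymph nodes, stood at 1.37 and 1.33. All 4 were above the 90th percentile in WT, and Cxcr4 and Ccr6 in MD1 as well. The T cell receptor genes Ccr8 and Ccr4 went from 0.99 to 0.83 and from 0.21 to 0.86. Cx3cr1, the fractalkine receptor of monocytes and microglia, went from 0.56 to 0.97. Cxcr2, the main receptor for the neutrophil attractants, went from 0.55 to 0.83. Ccr10, a receptor of skin T cells, went from 0.04 to 0.36, and Cxcr5, the B cell receptor for Cxcl13, from -0.24 to -0.27.

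The receptor cluster on chromosome 9, which begins with Ccr9, spans 8 genes, among them Cxcr6, Xcr1, Ccr1, Ccr1l1, Ccr3 and Ccr2. Apart from Cxcr6 their WT levels ran from -0.73 to 0.26, and their D from -0.25 to 0.73. The highest D was that of Ccr1l1, a relative of Ccr1 that went from -0.03 to 0.71. The myeloid receptor genes Ccr1 and Ccr2 went from -0.46 to -0.23 and from 0.26 to 0.39. Ccr3, a receptor of eosinophils, went from -0.36 to -0.62. Xcr1, a receptor of cross-presenting dendritic cells, went from 0.18 to 0.07, and Ccr9 from -0.73 to -0.75. Ccr1 and Ccr1l1 are close paralogs and may share multiply mapping reads.

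Cxcr6 (chromosome 9, 123715595 to 123720872) stood apart from the rest of the receptors, at -3.20 in WT and -4.96 in MD1, percentiles 2.77 and 2.51 of autosomal genes. Its interval lies over that of Fyco1, a gene of vesicle transport, which stood at -1.87 and -2.79. The D of Cxcr6 of -1.76 became -0.14 relative to level-matched genes, whose scatter was 1.22. In lowest terms its MD1 ratio was 2 to 61.

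Several ligands stood at other levels than their receptors, but not all. Cxcr2 and its ligand gene Cxcl5 stood at 0.55 and 0.65 in WT. Cxcl12 (chromosome 6, 117118553 to 117131386), the stromal ligand of Cxcr4, stood at -0.66 in WT and -0.97 in MD1, near the autosomal median, while Cxcr4 stood at 1.74 and 1.96. The atypical receptor for Cxcl12, listed as Ackr3 (also known as Cxcr7), stood at 0.60 and 0.32. Cxcl13 stood high and its receptor Cxcr5 lower, at 1.90 and -0.24 in WT. Ccr6 stood high and its ligand gene Ccl20 lower, at 1.73 and -0.07. The monocyte receptor gene Ccr2 stood at 0.26 in WT with its ligands Ccl2, Ccl7 and Ccl12 below it. In D some pairs had opposite signs and others the same sign. Ccr3 was negative, at -0.25 (0.02 when centred on the autosomal median and -0.16 when level-adjusted). Its ligands Ccl11 and Ccl24 were positive, at 0.60 and 0.97. Ccr2 and its ligands Ccl2, Ccl7 and Ccl12 were all positive, at 0.13, 0.75, 1.33 and 1.62.

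Chemokine promoters were poor in CpG. Of the 56 members 40 matched a promoter in the RefSeq table, 35 of them with values in both genotypes. The median ratio of observed to expected CpG was 0.20 for these 35, against 0.64 for 14745 autosomal genes with a promoter and values. A ratio of at least 0.6 was found at 5 members (14.3%), Ccl25, Cxcl14, Cxcr4, Cxcl12 and Cx3cl1, against 53.8% of autosomal genes. Their counts of CpG in 300 bases can be seen in the sequences above, with 52 at Ccl25, 22 at Cxcl14 and 20 each at Cxcr4 and Cxcl12, against 3 at Cxcl13 and 2 at Ccl12.

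The 5 CpG-rich members did not share a level. Cxcl14 and Cxcr4 stood at 1.94 and 1.74 in WT, Cx3cl1 at 0.07, Cxcl12 at -0.66 and Ccl25 at -1.37. Among all autosomal genes those with CpG-rich promoters had a median WT level of -1.86 and the others 0.08. CpG-poor members had a median of 0.20, close to CpG-poor genes at large. The rank correlation of CpG ratio with the WT level was 0.24 over 35 members and -0.46 over autosomal genes. With D it was -0.37 over the 35 members and -0.39 over autosomal genes, and with level-adjusted D it was -0.39 and -0.05. Over the 21 ligands the values were -0.59 with D and -0.60 with level-adjusted D, and over the 14 receptors -0.13 and -0.09. CpG-rich autosomal genes had a median D of -0.59 and the others -0.07. All 4 CpG-rich ligands had a negative D, from -0.77 at Ccl25 to -0.24 at Cxcl14. That of Cxcl14 became 0.03 after centring on the autosomal median but -0.35 after level adjustment, against a scatter of 0.31. The CpG-rich receptor gene Cxcr4 had a D of 0.21. These genes share 2 libraries and in part a neighbourhood, so the correlations are descriptions.

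**Figure D5:**
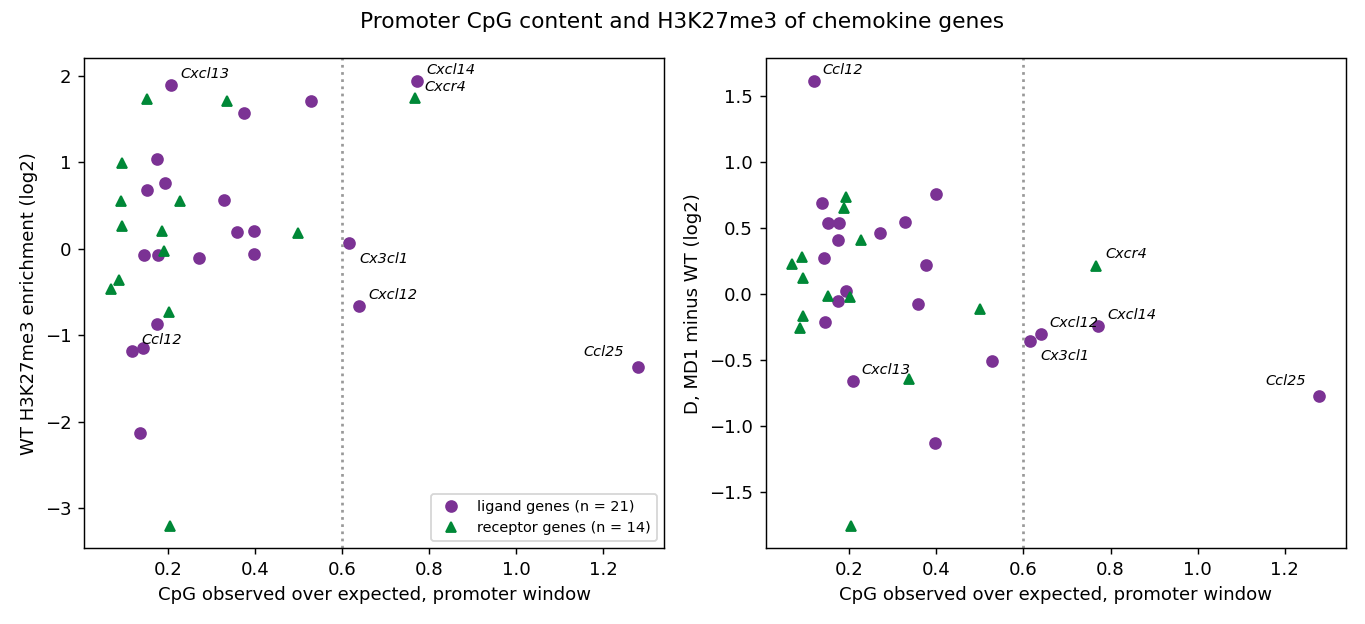
WT log2 H3K27me3 enrichment (left) and D (MD1 minus WT, log2, right) against the ratio of observed to expected CpG in the promoter window, for 21 ligand genes (circles) and 14 receptor genes (triangles), with a dotted line at 0.6. Right of the line Cxcl14 and Cxcr4 stand high in WT and Ccl25 and Cxcl12 lower, and all ligands there have a negative D. That of Cxcl14 turns to 0.03 when centred on the autosomal median and is -0.35 when level-adjusted.

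The kappaB consensus, searched on both strands with overlapping matches allowed, was found in 7 of 26 ligand promoters and 2 of 14 receptor promoters, against 8.19% of 27025 RefSeq promoters. The ligands were Ccl20, Ccl1, Ccl9, Cxcl3, Cxcl1, Cxcl2 and Cxcl10. Their D ran in both directions, from -1.13 at Cxcl1 to 0.76 at Cxcl2. The TATA motif TATAAA on either strand was found in 11 of 40 member promoters (27.5%), against 14.2% of all promoters.

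Other genes of the pathway were taken from lists drawn up by role. The 7 atypical receptors and relatives with values had a median of 0.22 in WT and 0.32 in MD1, like the receptors proper. Of these, Gpr182 went from 0.67 to -0.35, a D of -1.02, Cmklr1, the chemerin receptor gene, from -0.40 to 0.06 and Ackr1 from 0.16 to 0.43. The 10 chemokine-like factors and ligands under other names had a median of -0.56 in WT, with 2 genes at least 2-fold lower and none higher, a share lower of 20% against 20.4% of all autosomal genes. Their largest level-adjusted D was 0.38, at Cmtm5.

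Genes that transmit chemokine signals stood lower, with a median of -1.01 in WT over 23 genes. Of these 6 were at least 2-fold lower and none higher, a share lower of 26.1% that is near the 20.4% of all autosomal genes. The G protein gene Gnai2 went from -2.88 to -5.44, Rac1, encoding a small GTPase of cell migration, from -3.29 to -5.47 and Arrb2, encoding an arrestin that desensitises receptors, from -0.69 to -0.14. Relative to level-matched genes no gene of this list passed the limit. The 17 inducers of chemokine genes had a median of -1.85 in WT and -2.46 in MD1, with 2 genes lower by 2-fold on both scales. That is 11.8% of the list, against 20.4% of autosomal genes in D and 3.41% in level-adjusted D. These were Irf3, encoding an interferon regulatory factor, from -1.85 to -5.65, and Rela, encoding a subunit of nuclear factor kappaB, from -2.29 to -5.44. The interleukin receptor gene Il1r1 went from -1.33 to -0.65. The 26 other cytokine genes, a comparison for the ligands, had a median of 0.49 in WT and 0.65 in MD1, with a median D of -0.05 and 12 positive. Among them Ltb went from 2.52 to 1.81, Tslp from -1.03 to -0.46 and Il12a from 1.43 to 0.86.

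Smchd1 itself went from -2.44 to -3.47, a level-adjusted D of 0.03. H3K27me3 at this gene does not check the genotype.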

How the data were processed

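H3K27me3 ChIP-seq of 2 genotypes was analysed from the authors' table of 1 log2 enrichment per gene and genotype, deposited for genome build mm9 per the submitters' processing notes. The WT and MD1 columns are log2 values per the file headers and the values themselves. For aligner, counting, filters and denominator, the method is not given in the sources used here. After 1 constant per column was subtracted, 99.98% of WT and 99.95% of MD1 values were whole-number ratios on the log2 scale (numbers up to 20000, relative tolerance 1e-12). Ratios are quoted in lowest terms, so read counts and depth remain unknown.

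Computed here with Python 3.11.15, pandas 2.3.3, numpy 2.4.6, matplotlib 3.10.9 and Biopython 1.88 were D, level-adjusted D (tested on simulated data), percentiles among 19836 autosomal genes, clusters and promoter CpG ratios. Overlapping gene intervals were marked. Values are given in full for the 6 highest and lowest in WT level and in D, with Cxcl12 and Cxcr4, and for up to 3 genes of each related list. The members and lists were chosen with earlier results of these data known. Ccl28 and a RefSeq promoter for 16 members were not used here. 1 member is not reported here by its own values and stays in counts and medians.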

Additional observations from a re-analysis of the deposited data

How the results depend on the processing

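The number of members at least 2-fold lower and higher in MD1, 2 each, rests on few genes and moved with the setting. A pseudocount of 1 on the linear ratio left 0 and 0, and a 1.5-fold limit gave 6 and 11, a 3-fold limit 1 and 1. Centring gave 1 lower and 6 higher, level adjustment 1 and 3, adjustment for the WT value alone 1 and 4, and ratios with denominators of at least 20 left 1 and 0 among 30 members. The number of lower members was 1 also without overlapping genes and without genes below the 25th percentile of mean level, both of which drop Cxcr6. With the pseudocount of 1 the median levels shifted to 1.07 (ligands) and 1.10 (receptors) in WT and to 1.25 and 1.30 in MD1, since it raises low values. Denominators of at least 20 left 6 of the 11 genes of the chromosome 11 clusters. This filter leaves D as it was, so the positive sign of these 6 was fixed beforehand. It acts on ratios in lowest terms, so it is no filter on read number, and it also dropped the long gene Cx3cr1 (19614 bp). Without those clusters, a setting added after the data were seen, the median D of ligands turned from 0.25 to -0.08 and the gap to receptors from 0.26 to -0.06. With denominators of at least 20 the median of ligands was 0.08 and the gap 0.11, and with the pseudocount of 1 the gap was 0.13. In the other settings the gap lay between 0.18 (level-adjusted) and 0.29 (without overlapping genes). The median D of receptors turned positive when centred (0.25) or adjusted (0.05 by mean level, 0.08 by WT value). A cluster gap of 1000 kb changed no cluster median, and the number of CpG-rich members was 5 with the most CpG-rich start as well. Centred on the autosomal median, the D of Cxcl14 turned to 0.03 and that of Ccr3 to 0.02, but level-adjusted they stayed negative, at -0.35 and -0.16. Among 18 members named by rule, reversal was judged only at those beyond 2-fold, Ccl12, Ccl7, Cxcl1 and Cxcr6, and none reversed. Only centring and the adjustments could turn a sign, since a pseudocount or a filter cannot. Among the others named, the small D of Ccr6 turned to 0.26 when centred but was -0.15 when level-adjusted, and that of Ccl4 turned to -0.05 when level-adjusted. No paired analysis was possible because each genotype had 1 ChIP library and 1 input library.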
